A study of Mus musculus with 6 samples.

Results

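The 36 aminoacyl-tRNA synthetase genes analysed here comprised 20 genes for cytosolic enzymes and 16 genes for mitochondrial enzymes, the latter chosen by a symbol ending in 2. They were taken by symbol from 26216 gene names measured by RNA-seq in LT/ST-HSCs, and all 36 lay among the 13108 names with the highest mean that were tested. LT/ST-HSCs are the long-term and short-term repopulating hematopoietic stem cells of the bone marrow. *Ltbr*-/- LSKs (CD45.2, donors of 10 to 13 weeks of age) and *Ltbr*-proficient Ly5.1 LSKs (donors of 7 to 13 weeks) had been injected together into Ly5.1/Ly5.2 recipients after lethal irradiation, so that both genotypes grew in the same hosts, which carry intact *Ltbr*. LSKs are the lineage-negative, Sca-1 and c-Kit positive cells that include the stem cells. After 6 weeks LT/ST-HSCs of each genotype were sorted from the bone marrow of 6 chimeras and pooled to 3 replicates per genotype. The deletion was present in all *Ltbr*-/- donor cells from the start, and the Ly5.1 cells came from a congenic strain rather than from littermates.

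An aminoacyl-tRNA synthetase joins an amino acid to the tRNAs that carry it, and the ribosome then uses the charged tRNA. The cytosol and the mitochondria each translate their own messages, and for most amino acids the nucleus holds separate genes for the cytosolic and the mitochondrial enzyme. In the cytosol several synthetases assemble with scaffold proteins into a multisynthetase complex, and many synthetase genes are targets of ATF4, the transcription factor of the amino acid response. Protein synthesis is known to be kept low in resting hematopoietic stem cells.

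The deposited signal is taken here, from its values and the study's methods, as a normalized value, the power of 2 of a regularized log. Such a log already corrects for library size and draws weakly expressed genes towards their mean. Counts are not part of the files used here, so sequencing depth cannot be read from them and no counting interval is given. *Ltbr*, the deleted gene, had a signal of 24.2, 26.4 and 23.1 in *Ltbr*-/- and of 564, 549 and 522 in Ly5.1 LT/ST-HSCs (log2 fold change −4.47, standard error 0.08, adjusted p = 2.15e-32 from limma). Of the HSC markers, *Kit* lay between 5179 and 6103 and *Mecom*, *Hlf*, *Procr*, *Cd34*, *Ly6a* and *Slamf1* were measured in every sample, while *Cd48*, which the sorting gate excludes, lay between 20.1 and 28.9. The 5 neutrophil markers *S100a8*, *S100a9*, *Ngp*, *Ltf* and *Camp* were measured at 3680 to 14909 in these sorted cells.

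Of the 20 cytosolic synthetases 7 rose in *Ltbr*-/- LT/ST-HSCs, by 23.0% to 42.4%. No mitochondrial synthetase with a symbol ending in 2 passed the test in either direction. The 7 were *Sars*, *Gars*, *Qars*, *Kars*, *Yars*, *Tars* and *Aars*, which charge the tRNAs for serine, glycine, glutamine, lysine, tyrosine, threonine and alanine. Among them *Gars* and *Kars* supply the mitochondrial enzyme as well as the cytosolic one. No cytosolic synthetase fell. These counts are of genes with a Benjamini-Hochberg adjusted p under 0.05 in limma over all tested genes, by which 10.6% of all tested genes rose and 4.18% fell. Of all calls 71.7% were higher in the fit reported here, 57.7% under quantile normalization and 52.9% with a correction for transcript length and GC content, and all 7 synthetases were called as higher in each of these settings. Under the stricter rule of the study, which also asks for a fold of at least 1.5, 2.72% of the tested genes rose and 0.0610% fell (2.78% in either direction), and 0 of the 36 synthetases were called in either direction, since the largest change was 1.42-fold. With an unadjusted p under 0.05, 11 cytosolic and 0 mitochondrial synthetases were higher and 0 of the 36 were lower. Of the 13108 tested genes, 2060 were higher and 1495 lower at that threshold.

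*Sars* was measured at 4357, 4198 and 4522 in *Ltbr*-/- and at 3012, 2865 and 3319 in Ly5.1 LT/ST-HSCs. Its log2 fold change of 0.51 was the largest of the 36 (standard error 0.08, adjusted p = 3.094e-06 from limma). All 3 *Ltbr*-/- replicates lay above all 3 Ly5.1 replicates, and the same held for each of the other 6 genes that rose. *Gars* lay at 4584, 4627 and 4709 against 3466, 3214 and 3337 (log2 fold change 0.48, standard error 0.07, adjusted p = 4.797e-06 from limma). In *Gars* the *Ltbr*-/- replicates were close together, with a mean of 4640 ± 63.6 (SD, n = 3), and the gene also supplies the mitochondrial glycyl-tRNA synthetase. *Qars* lay at 5009, 5389 and 5617 against 3826, 3823 and 4212 (log2 fold change 0.43, standard error 0.07, adjusted p = 2.99e-05 from limma). *Kars* lay at 6116, 5772 and 6131 against 4429, 4387 and 4807 (log2 fold change 0.40, standard error 0.07, adjusted p = 4.968e-05 from limma). *Kars* encodes both the cytosolic and the mitochondrial lysyl-tRNA synthetase, and with *Qars* it was 1 of the 2 enzymes of the multisynthetase complex that rose.

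The changes of the other 3 genes were smaller and rested more on single samples. *Yars* had signals of 1201, 1363 and 1328 in *Ltbr*-/- and of 943, 1041 and 1107 in Ly5.1 LT/ST-HSCs (log2 fold change 0.33, standard error 0.09, adjusted p = 0.00791 from limma). *Tars* had signals of 1763, 1903 and 1935 against 1419, 1526 and 1558 (log2 fold change 0.31, standard error 0.08, adjusted p = 0.007243 from limma). *Aars* had signals of 2940, 2690 and 2822 against 2445, 2120 and 2311 (log2 fold change 0.30, standard error 0.08, adjusted p = 0.00826 from limma). The groups were apart in all 3 genes, but the lowest *Ltbr*-/- and the highest Ly5.1 value of *Yars*, and likewise of *Aars*, differed less than the replicates of either group did among themselves. *Aars* was no longer called without *Ltbr*-/- replicate 1 (limma adjusted p = 0.05204) or without Ly5.1 replicate 2 (0.05852). *Tars* was lost without *Ltbr*-/- replicate 3 (limma adjusted p = 0.05094), and *Yars* without *Ltbr*-/- replicate 2 (0.05404) or Ly5.1 replicate 1 (0.06566). *Sars*, *Gars*, *Qars* and *Kars* were called in all 6 fits that left out 1 sample, and the log2 fold change of *Kars* was 0.24 under quantile normalization. For each of the 7 genes taken alone, the exact two-sided permutation test gave p = 0.1, the smallest p that 3 against 3 samples allow.

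**Figure D1:**
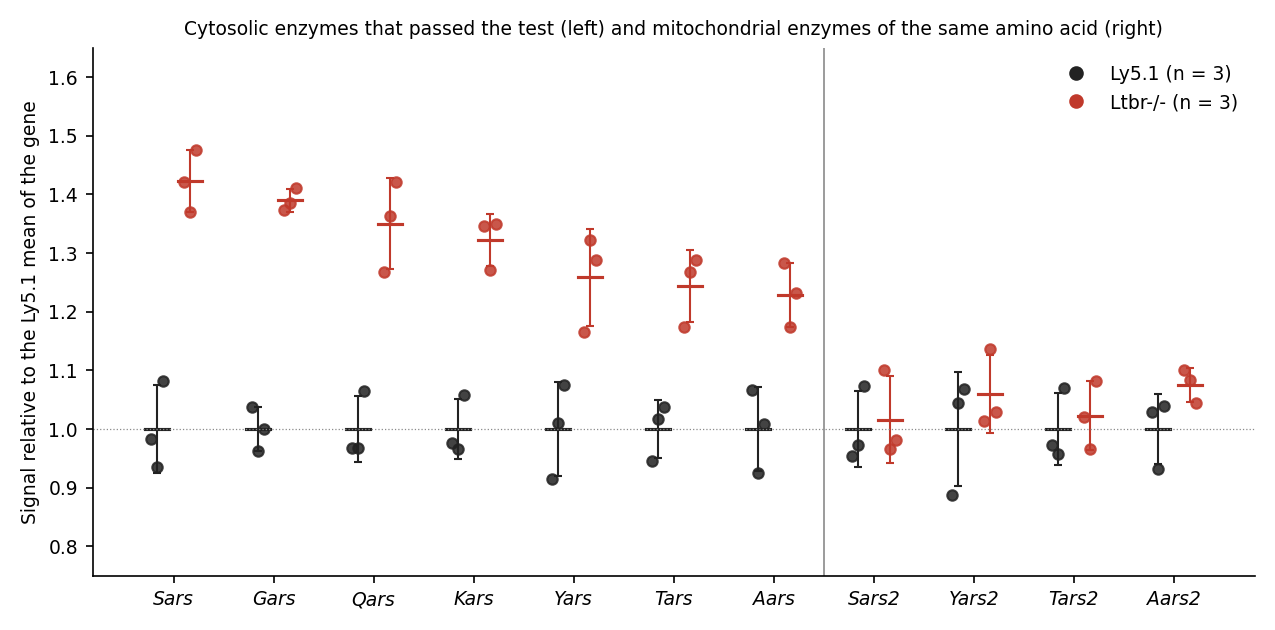
Signal in each replicate of the 7 synthetases that rose and, where the files hold one, of the mitochondrial enzyme for the same amino acid (vertical axis, signal relative to the mean of the 3 Ly5.1 replicates of the gene; points, replicates; horizontal bars, means; error bars, SD). In each of the 7 cytosolic genes, which were picked by the test on these same samples, the 3 Ltbr-/- points lie above the 3 Ly5.1 points. Their group means of the signal are 22.9% (Aars) to 42.2% (Sars) apart. The points of Sars2, Yars2 and Tars2 overlap.

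*Aars* needs a caution of identity. Of the windows of 76 bases in its transcripts, 13.13% also occur in *Exosc6*, an exosome subunit gene on the same strand whose exons overlap those of *Aars* by 1326 bases. *Exosc6* itself was higher, at 134 ± 8.56 against 112 ± 13.4 (SD, n = 3; log2 fold change 0.27, adjusted p = 0.03383 from limma), at a signal far under that of *Aars*. The other 6 genes that rose shared at most 0.08% of their windows with another gene. On the opposite strand, the exons of *Rab3gap2* overlap 22.9% of the exonic bases of *Iars2*, and whether the counting used the strand that the library kit keeps is not given in the sources used here. In GENCODE release M21 on GRCm38 the 7 genes lie on 6 chromosomes, with *Aars* at chr8:111033144-111057664 and *Kars* at chr8:111993443-112011323. *Sars* lies at chr3:108424865-108445209, *Gars* at chr6:55038007-55079500 and *Qars* at chr9:108507706-108515941. *Yars* lies at chr4:129189760-129219607 and *Tars* at chr15:11382301-11399665.

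Promoter sequence from RefSeq on GRCm38.p6 (250 bases before to 50 bases after the start of the transcript) was at hand for 26 of the 36 genes, including all 7 that rose. It was not at hand for *Cars*, *Hars*, *Lars*, *Mars*, *Nars*, *Rars*, *Vars*, *Wars*, *Hars2* and *Pars2*. It was searched on both strands for TGATGNAA, the core letters of the amino acid response element to which ATF4 binds together with a C/EBP partner, a motif chosen after the values had been seen. The letters occurred in 5 of the 26 promoters and in 4.51% of the 27025 genes with a promoter sequence. Of the 5, 4 belong to genes that rose, namely *Aars*, *Gars*, *Tars* and *Yars*, and the fifth is *Iars*, which charges isoleucine tRNAs and did not pass the test. None of the 14 mitochondrial synthetase promoters held them, nor did the promoters of *Sars*, *Qars* and *Kars*, 3 of the genes with the largest changes. A match from each of these 5 promoters is printed because it is what they share, as 30 bases of the gene's own strand with the matched letters in capitals.
Aars, chr8:111033840-111033869, + strand, 9 bases after the start: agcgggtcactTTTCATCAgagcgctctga
Gars, chr6:55037960-55037989, + strand, 30 bases before the start: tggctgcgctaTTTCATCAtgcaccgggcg
Tars, chr15:11399655-11399684, − strand, 15 bases before the start: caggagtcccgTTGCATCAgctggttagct
Yars, chr4:129189895-129189924, + strand, 3 bases after the start: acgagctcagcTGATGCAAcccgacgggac
Iars, chr13:49682126-49682155, + strand, 7 bases after the start: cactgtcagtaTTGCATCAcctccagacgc

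In all but *Yars* the match printed reads on the opposite strand, so that the letters printed are its reverse complement. The E-box CACGTG, searched for comparison and likewise chosen after the values had been seen, occurred in the promoters of *Aars*, *Tars*, *Farsb*, *Iars* and *Ears2* and in 8.09% of all genes with a promoter sequence. No E-box overlapped a match of the first motif. A match of letters is a description of the sequence and does not show that a factor binds there.

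The remaining 13 cytosolic synthetases did not pass the test. Closest to it were *Farsb* and *Farsa*, the subunits of the phenylalanyl-tRNA synthetase, with log2 fold changes of 0.21 and 0.18 (adjusted p = 0.09383 and 0.1314 from limma). *Farsb* lay at 1789, 1734 and 1834 in *Ltbr*-/- and at 1447, 1609 and 1592 in Ly5.1 LT/ST-HSCs, and *Farsa* at 2743, 2517 and 2624 against 2451, 2138 and 2363. Both subunits were apart between the groups, as was *Nars* for asparagine (log2 fold change 0.16, limma adjusted p = 0.1826). *Rars* for arginine had a log2 fold change of 0.18 (limma adjusted p = 0.1508), with overlapping groups. *Cars*, *Mars*, *Dars*, *Eprs*, *Wars* and *Vars* had log2 fold changes of 0.13, 0.12, 0.09, 0.06, 0.05 and 0.03, and the replicates of the genotypes overlapped in each. They charge cysteine, methionine, aspartate, glutamate with proline, tryptophan and valine tRNAs. *Hars*, *Iars* and *Lars*, for histidine, isoleucine and leucine, had log2 fold changes of −0.06, −0.07 and −0.07. In *Lars* the *Ltbr*-/- replicates lay at 2374, 2445 and 2483, all under the Ly5.1 replicates at 2541, 2549 and 2563, and the difference did not pass the test (limma adjusted p = 0.6247). *Vars*, the synthetase with the highest level per kilobase, had signals of 9281 ± 213 against 9154 ± 1038 (SD, n = 3), and passed the test as lower under quantile normalization (log2 fold change −0.27, limma adjusted p = 0.001726) and in no other setting.

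**Figure D2:**
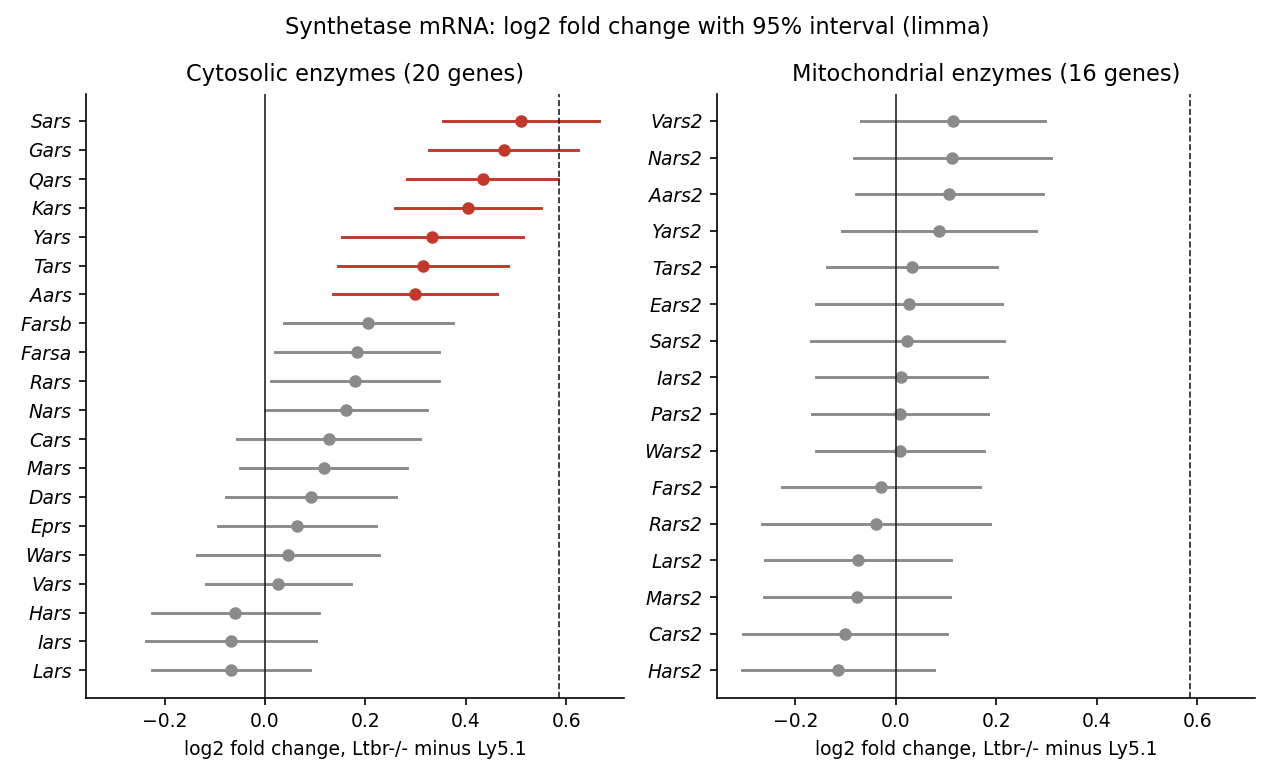
Log2 fold change of the 36 synthetases, Ltbr-/- against Ly5.1, with 95% confidence intervals (horizontal axis, log2 of the signal ratio; red, Benjamini-Hochberg adjusted p under 0.05; dashed line, a fold of 1.5). The 7 red points lie between 0.30 and 0.51 and all belong to the cytosolic set, in which Gars and Kars also supply the mitochondrial enzyme. The 16 points of the mitochondrial set lie between −0.12 and 0.11.

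The mitochondrial synthetases lay close to 0. Their log2 fold changes ran from −0.12 in *Hars2* to 0.11 in *Vars2*, with 10 above 0 and 6 below 0, and none had an adjusted or unadjusted p under 0.05 in limma (lowest unadjusted p = 0.2135 in *Vars2*). *Hars2*, *Cars2*, *Mars2*, *Lars2*, *Rars2* and *Fars2* were below 0. *Wars2*, *Pars2*, *Iars2*, *Sars2*, *Ears2*, *Tars2*, *Yars2*, *Aars2*, *Nars2* and *Vars2* were above 0, and *Sars2*, *Ears2*, *Iars2*, *Tars2* and *Mars2* changed sign with another normalization or correction. *Nars2* had the highest upper bound among the 95% confidence intervals, 0.31 on the log2 scale. Only the intervals of *Sars* and *Gars*, with lower bounds of 0.35 and 0.33, lay wholly above it. Those of *Qars*, *Kars*, *Yars*, *Tars* and *Aars* overlapped that of *Nars2*. The replicates were farthest apart in *Rars2*, at 666, 938 and 851 in *Ltbr*-/- and at 686, 848 and 993 in Ly5.1 LT/ST-HSCs.

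For 4 of the 7 genes that rose the files hold the mitochondrial enzyme of the same amino acid, and none of these passed the test. *Sars2* had signals of 439, 385 and 391 in *Ltbr*-/- and of 380, 388 and 428 in Ly5.1 LT/ST-HSCs (log2 fold change 0.02, limma adjusted p = 0.9133). *Yars2* had signals of 538, 603 and 546 against 471, 554 and 567 (log2 fold change 0.09, limma adjusted p = 0.6128). The groups overlapped in both, and also in *Tars2*, with signals of 1842, 1745 and 1955 against 1755, 1730 and 1932 (log2 fold change 0.03, limma adjusted p = 0.849). *Aars2* had signals of 542, 534 and 515 against 507, 460 and 512 (log2 fold change 0.11, limma adjusted p = 0.4944). It was the only mitochondrial synthetase of the 16 whose groups did not overlap, against 10 of the 20 cytosolic synthetases with the *Ltbr*-/- replicates above the Ly5.1 replicates and 1, *Lars*, with them below. Over all tested genes the groups did not overlap upward in 17.0% and downward in 13.5%.

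The cytosolic and mitochondrial sets differed in their counts and medians. The median log2 fold change was 0.17 over the 20 cytosolic and 0.01 over the 16 mitochondrial synthetases, against −0.01 over all tested genes. Of the cytosolic genes 17 were above 0, whereas 46.4% of the tested genes were. The signals of the cytosolic synthetases summed to 63412.5, 62016.2 and 65855.0 in the *Ltbr*-/- replicates and to 55404.5, 53709.1 and 57209.8 in the Ly5.1 replicates, which was 15.0% more on average. Those of the mitochondrial synthetases summed to 10261.4 to 11153.1 and to 10283.0 to 11126.5, so that the groups overlapped. Members of a set are not replicates, and no test of the difference between the sets was made.

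**Figure D3:**
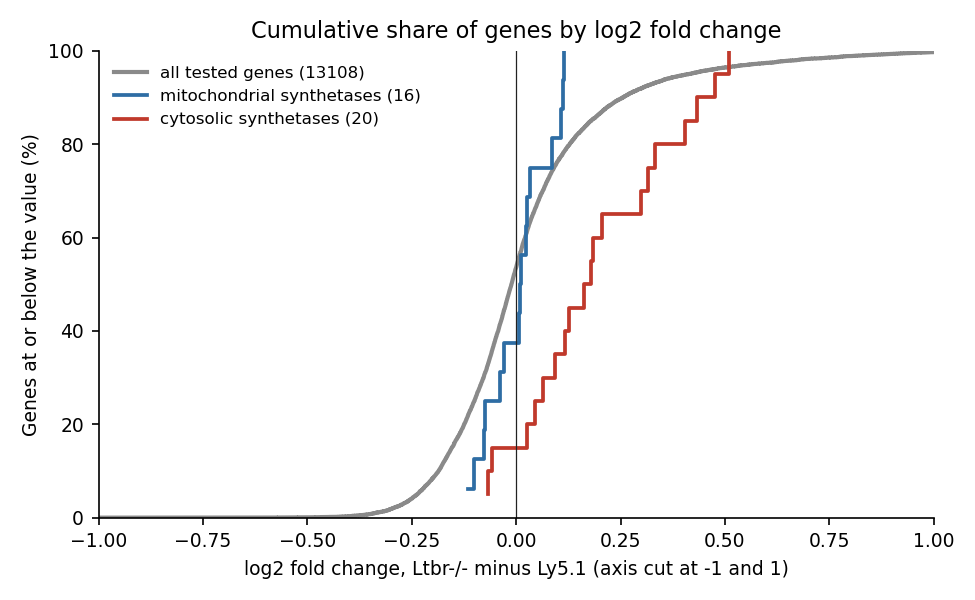
Cumulative share of genes (vertical axis) by log2 fold change, Ltbr-/- against Ly5.1 (horizontal axis, shown from −1 to 1), for the cytosolic synthetases, the mitochondrial synthetases and all tested genes. The cytosolic curve lies to the right with a median of 0.17, and the mitochondrial median of 0.01 lies next to the −0.01 of all tested genes.

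The compartments also differed in level, with some overlap. Per kilobase of transcript, the level in Ly5.1 LT/ST-HSCs was lowest in *Cars* at 343 and highest in *Vars* at 2213 among the cytosolic genes, with a median of 852. It was lowest in *Mars2* at 18.5 and highest in *Tars2* at 559 among the mitochondrial genes, with a median of 171. The share of all tested genes that rose by the adjusted p was 19.4% among those with a Ly5.1 mean signal in the range of the cytosolic synthetases (1030 to 9154), and 10.7% among those in the range of the mitochondrial synthetases (115 to 1911). The cytosolic share was 35.0% (7 of 20) and the mitochondrial share was 0 of 16. Shrinkage in the regularized log is stronger for weak genes, and its part in the small values of the mitochondrial genes was not tested.

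Within a sample, the log2 ratio of the cytosolic to the mitochondrial enzyme for the same amino acid compares both without regard to the scaling of that sample. In 15 of 17 such pairings the mean ratio was higher in *Ltbr*-/- LT/ST-HSCs, with a median change of 0.19 on the log2 scale. The ratio of *Sars* to *Sars2* was 3.31, 3.45 and 3.53 on the log2 scale in *Ltbr*-/- and 2.99, 2.89 and 2.96 in Ly5.1 replicates. The ratio of *Tars* to *Tars2* was −0.06, 0.12 and −0.01 against −0.31, −0.18 and −0.31. Groups were apart in 5 pairings, *Sars* to *Sars2* (change 0.49), *Tars* to *Tars2* (0.28), *Yars* to *Yars2* (0.25), *Farsb* to *Fars2* (0.24) and *Aars* to *Aars2* (0.19), all with the higher ratio in *Ltbr*-/- replicates. In the other 12 pairings the replicates of the genotypes overlapped. The changes were lowest for *Vars* to *Vars2* (−0.09) and *Iars* to *Iars2* (−0.08). *Eprs* enters as the partner of both *Ears2* and *Pars2*, and *Fars2* as the partner of both *Farsa* and *Farsb*, so that the pairings are not independent.

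**Figure D4:**
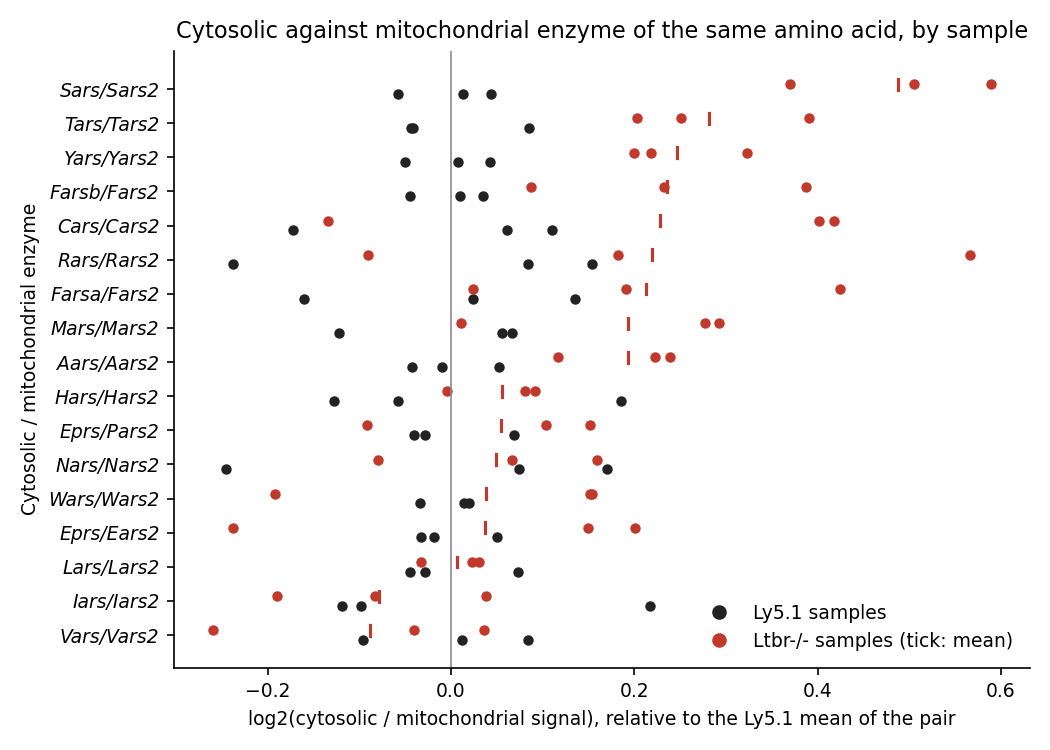
Log2 ratio of the cytosolic to the mitochondrial enzyme of the same amino acid in each replicate, centred on the mean of the Ly5.1 replicates of that pairing (17 pairings; black, Ly5.1 replicates; red, Ltbr-/- replicates with their mean as a tick). The Ltbr-/- points lie above the Ly5.1 points without overlap in 5 pairings, with the largest change, 0.49, in Sars/Sars2.

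The genes that rose were spread over the known groups of cytosolic synthetases. By the same test 10.6% of all tested genes rose. The share was 19.4% among tested genes with a Ly5.1 mean signal in the range of the cytosolic synthetases. Of the 8 enzymes of the multisynthetase complex (*Dars*, *Eprs*, *Iars*, *Kars*, *Lars*, *Mars*, *Qars* and *Rars*), 2 rose and the median log2 fold change was 0.10. Of the 12 genes outside the complex, 5 rose and the median was 0.19. By structural class, 5 of the 10 genes of class II rose (*Sars*, *Gars*, *Kars*, *Tars* and *Aars*; median 0.25), against 2 of the 9 genes of class I (*Qars* and *Yars*; median 0.12), with *Eprs*, which joins an enzyme of each class, in neither. *Gars*, *Qars* and *Kars*, the 3 cytosolic synthetases for which the files list no separate mitochondrial gene, all rose, with changes of 0.40 to 0.48, against 4 of the other 17 (median 0.13). This last split was completed after the values had been seen. None of these differences between groups was tested. Transcript length had a median of 2909 bases in the 7 genes that rose and of 2831 bases in the 13 others, GC content 52.4% and 48.3%, and the level per kilobase in Ly5.1 LT/ST-HSCs 859 and 845.

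In the lists of other genes of tRNA charging only *Aimp1* passed the test. By the same test 10.6% of all tested genes rose and 4.18% fell, and these lists are too short to show a departure from such shares. Of the 3 scaffold proteins of the multisynthetase complex only *Aimp1* rose, at 1839, 1947 and 2174 against 1320, 1437 and 1470 (log2 fold change 0.49, adjusted p = 3.778e-05 from limma), while *Aimp2* and *Eef1e1* had log2 fold changes of 0.03 and −0.02. None of 2 subunits of the mitochondrial amidotransferase and none of 6 genes for tRNA 3′ ends and export passed the limma test at an adjusted p under 0.05, and at an unadjusted p under 0.05 1 gene of each list did, *Qrsl1* with 0.21 and *Trnt1* with −0.20 on the log2 scale.

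Downstream of charging, 5 of 6 elongation factor genes rose. For this and the counts below, 10.6% of all tested genes rose and 4.18% fell. *Eef1a1*, which delivers charged tRNA to the cytosolic ribosome, had signals of 163048 to 173517 in *Ltbr*-/- and of 112281 to 121094 in Ly5.1 LT/ST-HSCs (log2 fold change 0.53, adjusted p = 3.741e-13 from limma). Its exchange factor subunits *Eef1g*, *Eef1b2* and *Eef1d* rose by log2 fold changes of 0.998, 0.77 and 0.72. Of the mitochondrial factors *Tsfm* rose (0.35) and *Tufm* had a log2 fold change of 0.09 and did not pass the test. *Tsfm* was not called without *Ltbr*-/- replicate 3 (limma adjusted p = 0.05909), without Ly5.1 replicate 2 (0.1708) or with the correction for transcript length and GC content (0.1507). Of the cytosolic ribosomal protein genes 77 of 80 tested rose and 1 fell, with a median log2 fold change of 0.79, which is above the value of every synthetase. Of the mitochondrial ribosomal protein genes 24 of 76 rose and 0 fell, with a median of 0.20. The latter count was 15 without *Ltbr*-/- replicate 2, 14 without *Ltbr*-/- replicate 3 and 10 with the correction for transcript length and GC content.

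Genes of the amino acid response outside the synthetases were taken as a list of 28, of which 25 were tested. Of these 11 rose, 1 fell and 13 did not pass the test, with a median log2 fold change of 0.18. Among all tested genes 10.6% rose and 4.18% fell, with a median of −0.01. Of the list, 8 rose without *Ltbr*-/- replicate 3, and 8 likewise without Ly5.1 replicate 2 or with the correction for transcript length and GC content. *Asns*, the asparagine synthetase, lay at 1980, 1895 and 2033 in *Ltbr*-/- and at 1103, 1109 and 1038 in Ly5.1 LT/ST-HSCs (log2 fold change 0.86, adjusted p = 2.131e-10 from limma). *Slc3a2*, the heavy chain of several amino acid transporters, and *Eif4ebp1*, an inhibitor of cap-dependent translation, each rose by a log2 fold change of 0.77. The transcription factor *Atf5* rose by 0.69 and *Phgdh*, the first enzyme of serine synthesis, by 0.62 on the log2 scale. *Vldlr*, a lipoprotein receptor, fell by 0.32 on the log2 scale, and was not called without *Ltbr*-/- replicate 2 (limma adjusted p = 0.09009) or 3 (0.1006), without Ly5.1 replicate 1 (0.05054) or 2 (0.1029), or with that correction (0.08452). *Atf4* itself lay at 5933, 6012 and 6636 against 5264, 4996 and 4905 (log2 fold change 0.29, adjusted p = 0.003341 from limma), with the groups apart, and was named outside the rule for the 5 largest changes because it is the factor after which the list is chosen. *Atf4* was not called under quantile normalization (log2 fold change 0.12, limma adjusted p = 0.2056) or without *Ltbr*-/- replicate 3 (0.05639). *Psat1*, *Psph*, *Slc7a5*, *Sesn2* and *Trib3*, other members of the list, did not pass the test, with log2 fold changes from −0.07 to 0.19. The lowest values among those not called were −0.19 in *Slc38a2* and −0.10 in *Slc1a5*. Of the 25 tested genes 18 were above 0 and 7 below 0.

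**Figure D5:**
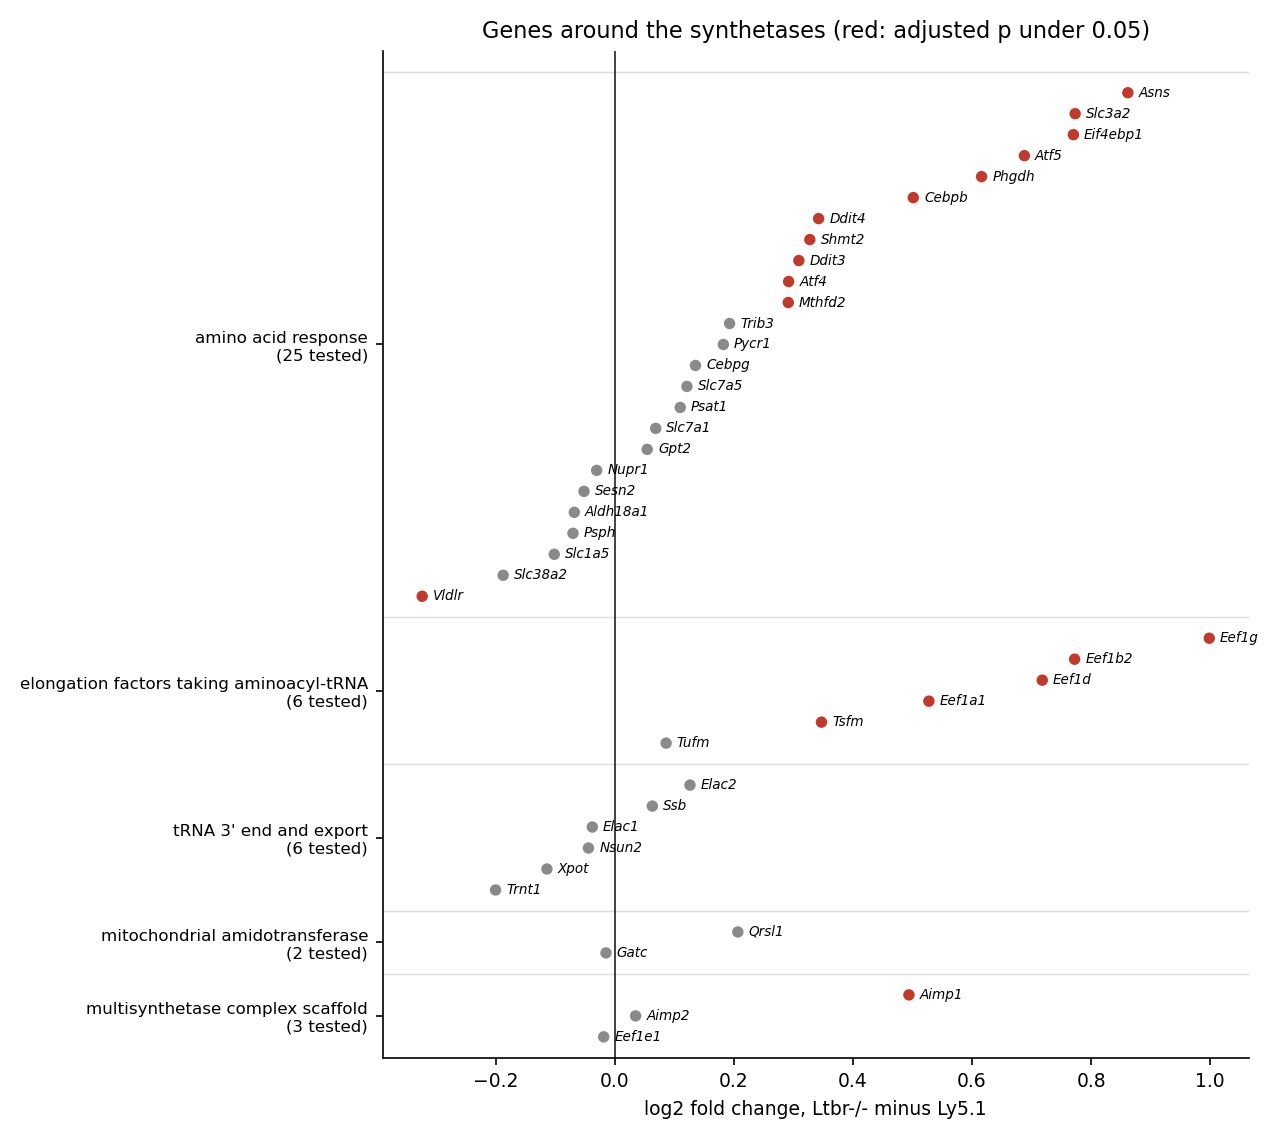
Log2 fold change, Ltbr-/- against Ly5.1, of each tested gene of the related lists other than the ribosomal proteins (horizontal axis, log2 of the signal ratio; red, Benjamini-Hochberg adjusted p under 0.05). Of the elongation factors 5 of 6 and of the amino acid response genes 11 of 25 lie in red to the right of 0, with the highest values 0.998 in Eef1g and 0.86 in Asns. By the same threshold 10.6% of all tested genes rose.

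Markers of other cells moved between the same samples. The summed signal of 5 mast cell and basophil markers was 7064 to 7455 in *Ltbr*-/- and 3396 to 4001 in Ly5.1 LT/ST-HSCs. Most of it was *Cma1*, with means of 5470 against 2195, and *Cpa3* was also higher. *Mcpt8* had a lower mean in *Ltbr*-/- replicates, 400 against 470, and did not pass the test. The defining *Fcer1a* and *Ms4a2* lay at 28.4 to 45.8 in all samples. The 5 neutrophil markers summed to 27445 to 27677 against 37139.5 to 40079.3, and all 5 were lower. Monocyte and macrophage markers summed to 2381 to 2672 against 1792 to 2029 (2 of 4 higher, *Emr1* and *Cd68*, with *C1qa* at 16.6 to 17.6). *Csf1r* of that list lay lower with the groups apart, at means of 432 against 521, and did not pass the test (limma adjusted p = 0.05926). Erythroid markers summed to 2654 to 2934 against 1591 to 1957 (1 of 4 higher, *Hba-a1*) and megakaryocyte markers to 11896 to 12623 against 9467 to 10699 (1 of 3 higher, 1 lower). B cell markers summed to 1387 to 1522 against 2241 to 2405 (1 of 4 higher, 2 lower), and T cell markers to 18.03 to 19.1 against 17.7 to 19.0. Of the markers of multipotent progenitors, which summed to 727 to 892 against 922 to 955, *Flt3* was lower, at 705, 863 and 705 against 902, 927 and 920 (log2 fold change −0.28, adjusted p = 0.03547 from limma). Among the 7 HSC markers *Ly6a* and *Cd34* were lower, and the sum was 10773 to 11164 against 12358 to 12721. Their part in the values of the synthetases was not tested. In bulk samples more RNA of a gene per cell and more cells of a type that expresses it cannot be told apart, and neither can genotype, strain and the younger lower limit of donor age in the Ly5.1 group.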

How the data were processed

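RNA of FACS-purified LT/ST-HSCs was sequenced in 6 samples, 3 *Ltbr*-/- and 3 Ly5.1, grouped by their labels. The authors used SeqMan NGen for assembly and ArrayStar for quantification, and the deposited value of a gene name is a signal, taken here from its values as the power of 2 of the regularized log named in the study's methods. The submitters' processing notes name DESeq2 and the builds GRCm38 and mm10. Counts and depth are unknown from these files, so precision rests on the spread between samples. In the limma fit the variance of each gene is drawn towards a trend over all tested genes. Its standard errors and p-values therefore rest on more than the gene's own 3 samples per group.

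Of 26595 values per sample, repeated names were reduced to the entry with the highest mean (379 values), and the upper 50% of 26216 names by mean was tested. The log2 signal was fitted with limma 3.58.1 (lmFit, eBayes with trend; R 4.3.3), with Benjamini-Hochberg adjustment over all 13108 tested names and no pseudocount. The script was tested on simulated data. Genes were called at an adjusted p under 0.05, and, as the study did, with a minimum fold of 1.5 in addition. Single values were compared by an exact permutation test (SciPy 1.17.1). Level per kilobase used the longest protein-coding GENCODE M21 transcript.

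The members and lists were chosen with earlier results of these data known. All 36 members are named, with every sample's value for those with an adjusted p under 0.05 and for the enzyme of the same amino acid in the other compartment, and up to 5 called genes of each related list. Beyond this rule, *Farsa*, *Farsb*, *Lars*, *Rars2*, *Atf4*, *Exosc6*, *Qrsl1*, *Trnt1*, *Tufm*, *Aimp2*, *Eef1e1*, *Psat1*, *Psph*, *Slc7a5*, *Sesn2*, *Trib3*, *Slc38a2* and *Slc1a5* were given with values after these were seen. *Gatb* was not found under that name, and *Adgre1* was read as *Emr1*. Some genes and a sequence of the lists, and the list of synthetase-like and editing factors, are not reported here.

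Alternatives were no filter, a pseudocount of 1, quantile normalization, centring on the median of the tested genes, a replicate block, variance without trend, a loess correction for GC content and transcript length (11886 genes with a transcript), the lowest entry of repeated names, no fold threshold, and leaving out each sample.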

Additional observations from a re-analysis of the deposited data

How the results depend on the processing

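All 7 synthetases that rose were also called as higher under each of the 8 alternatives of filter, pseudocount, scaling, block, variance, length and GC correction and repeated names. Without the fold threshold 7 cytosolic synthetases were called in place of 0, and 1936 genes in place of 364; with the length and GC correction 185 genes passed both thresholds. Quantile normalization moved the cytosolic median to 0.10, called 1 cytosolic synthetase (*Vars*, −0.27) as lower and turned *Eprs* to −0.11, *Iars2* to −0.027 and *Tars2* to −0.0079. The length and GC correction turned *Ears2* to −0.054, *Sars2* to −0.074 and *Mars2* to 0.033, and left 10 mitochondrial ribosomal protein genes higher. The causes were not tested. The median of all tested genes stayed between −0.03 and −0.0031 in these settings.

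Leaving out 1 sample at a time gave 6 to 7 cytosolic synthetases higher and 0 mitochondrial. It gave 14 to 26 mitochondrial ribosomal protein genes, 8 to 10 amino acid response genes and 4 to 5 elongation factor genes higher. The cytosolic median ran from 0.12 to 0.19 and the mitochondrial median from −0.01 to 0.04. Signs changed in *Iars* (−0.10 to 0.0013), *Vars* (−0.071 to 0.084), *Wars* (−0.0096 to 0.11), *Ears2* (−0.022 to 0.065), *Fars2* (−0.12 to 0.044), *Iars2* (−0.036 to 0.081), *Pars2* (−0.018 to 0.059), *Rars2* (−0.18 to 0.10), *Sars2* (−0.037 to 0.074), *Tars2* (−0.0086 to 0.083) and *Wars2* (−0.039 to 0.053), none of which was called.

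The labels give both groups replicate numbers 1 to 3. Deviations from the group means of same-numbered samples correlated at 0.03, −0.01 and 0.09, so that pairing by number is neither stated in the labels nor shown by the data, and not every sample correlated best with its own number. With the replicate number as a block, 7 cytosolic and 0 mitochondrial synthetases were higher, as without it, and 1372 genes rose and 564 fell in place of 1388 and 548. The study states an average number of reads per sample, but the depth of each sample and the counts per gene are unknown here. That limits what can be said of the weakest enzymes, *Wars2*, *Pars2*, *Mars2* and *Ears2*, whose values the regularized log draws together.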
